A study of Danio rerio with 27 samples.

Results

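Bile acid and canalicular transporters were examined as 8 genes, chosen by symbol from the 39988 entries of the count table: *abcb11b*, *abcc2*, *abcb4*, *abcb5*, *slc51a*, *slc10a2*, *abcg5* and *abcg8*. All 8 had an entry. Of them 6 passed the expression filter, which kept 15521 genes, and *abcg5* and *abcg8* had 0 counts in all 27 libraries. Each library was made from a pool of whole larvae, aged 21 days after fertilisation, and read with QuantSeq, which sequences the 3′ ends of polyadenylated RNA. Larvae labelled PY lacked p53, overexpressed YAP in the liver, carried tumours and were cachectic, and WT larvae were wild-type controls. The genotype labels were P53KO;lf:YAP;SLC45a2-KO;TGR5-KO for PY TGR5-KO (n = 5 pools), P53KO;lf:YAP;SLC45a2-KO;CYP7a1-KO for PY CYP7a1-KO (n = 5) and P53KO;lf:YAP;SLC45a2-KO for PY SLC45a2-KO (n = 5). They were WT;SLC45a2-KO;TGR5-KO for WT TGR5-KO (n = 4), WT;SLC45a2-KO;CYP7a1-KO for WT CYP7a1-KO (n = 4) and WT;SLC45a2-KO for WT SLC45a2-KO (n = 4). Every group, WT SLC45a2-KO included, therefore carried the knockout of *slc45a2*, a pigmentation gene used as a marker. The SLC45a2, TGR5 and CYP7a1 knockouts were made by injecting Cas9 complexes into embryos, so that larvae can be mosaic for them.

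Bile acids are made from cholesterol in hepatocytes, secreted across the canalicular membrane into bile, taken up again in the ileum and returned to the liver. In vertebrate liver the export step at the canaliculus is carried out by ATP-binding cassette pumps, each with its own cargo. Solute carriers move bile acids across the other membranes, and the nuclear receptor FXR adjusts synthesis and transport to the bile acid load. TGR5 is the membrane receptor for bile acids, and CYP7a1 is the first enzyme of the classical synthesis route.

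Total counts were 3377345 to 6238251 per library. The 3′ tags do not check the knockouts: *cyp7a1*, the targeted enzyme, averaged 12.3 ± 4.00 CPM in PY CYP7a1-KO against 8.57 ± 3.10 CPM in PY SLC45a2-KO (SD, n = 5 each), and 44.7 ± 9.30 CPM in WT CYP7a1-KO against 2.40 ± 1.68 CPM in WT SLC45a2-KO (SD, n = 4 each). The TGR5 gene, *gpbar1*, had 45 counts over all libraries and *slc45a2* had 20, both too low to compare. In PY CYP7a1-KO, libraries 1 and 2 stood apart from libraries 3 to 5, with a chi-square per degree of freedom of 13.7 to 21.8 between the sets and 8.08 to 12.96 among libraries 3 to 5. Where leaving out libraries 1 and 2 ended a call of that group for a gene named here, the value is given beside it. Hepatocyte markers were present in every group (19 of 19 with counts in every library). Pools are mixtures of tissues, and fewer cells of a type cannot be told apart from less RNA per cell. No label says that pools came from separate clutches, so p-values measure the spread between these pools.

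In the tumour background the transcripts of the bile salt pump *abcb11b* and the basolateral bile acid carrier *slc51a* were far higher than in wild type, whichever knockout the larvae carried. The conjugate pump *abcc2* was also higher in each case, but by 2.20-fold under TGR5-KO and 1.95-fold under CYP7a1-KO, with overlapping libraries, and *abcb4*, *abcb5* and *slc10a2* were not uniformly higher. Between PY SLC45a2-KO and WT SLC45a2-KO, *abcb11b* was 14.5-fold, *slc51a* 8.83-fold and *abcc2* 5.36-fold higher. Mean *abcb11b* and *abcc2* were lower in PY TGR5-KO and in PY CYP7a1-KO than in PY SLC45a2-KO, though still above the means of their WT counterparts. Without libraries 1 and 2 of PY CYP7a1-KO, neither fall in that group was called (adjusted p = 0.0526 for *abcb11b* and 0.106 for *abcc2*, edgeR). The log2 changes were then −0.89 and −0.66, against −0.71 and −0.79 with all libraries. Values below are CPM scaled by TMM factors, and a gene was called at an adjusted p under 0.05, from edgeR's quasi-likelihood test with Benjamini-Hochberg adjustment over all 15521 genes.

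**Figure D1:**
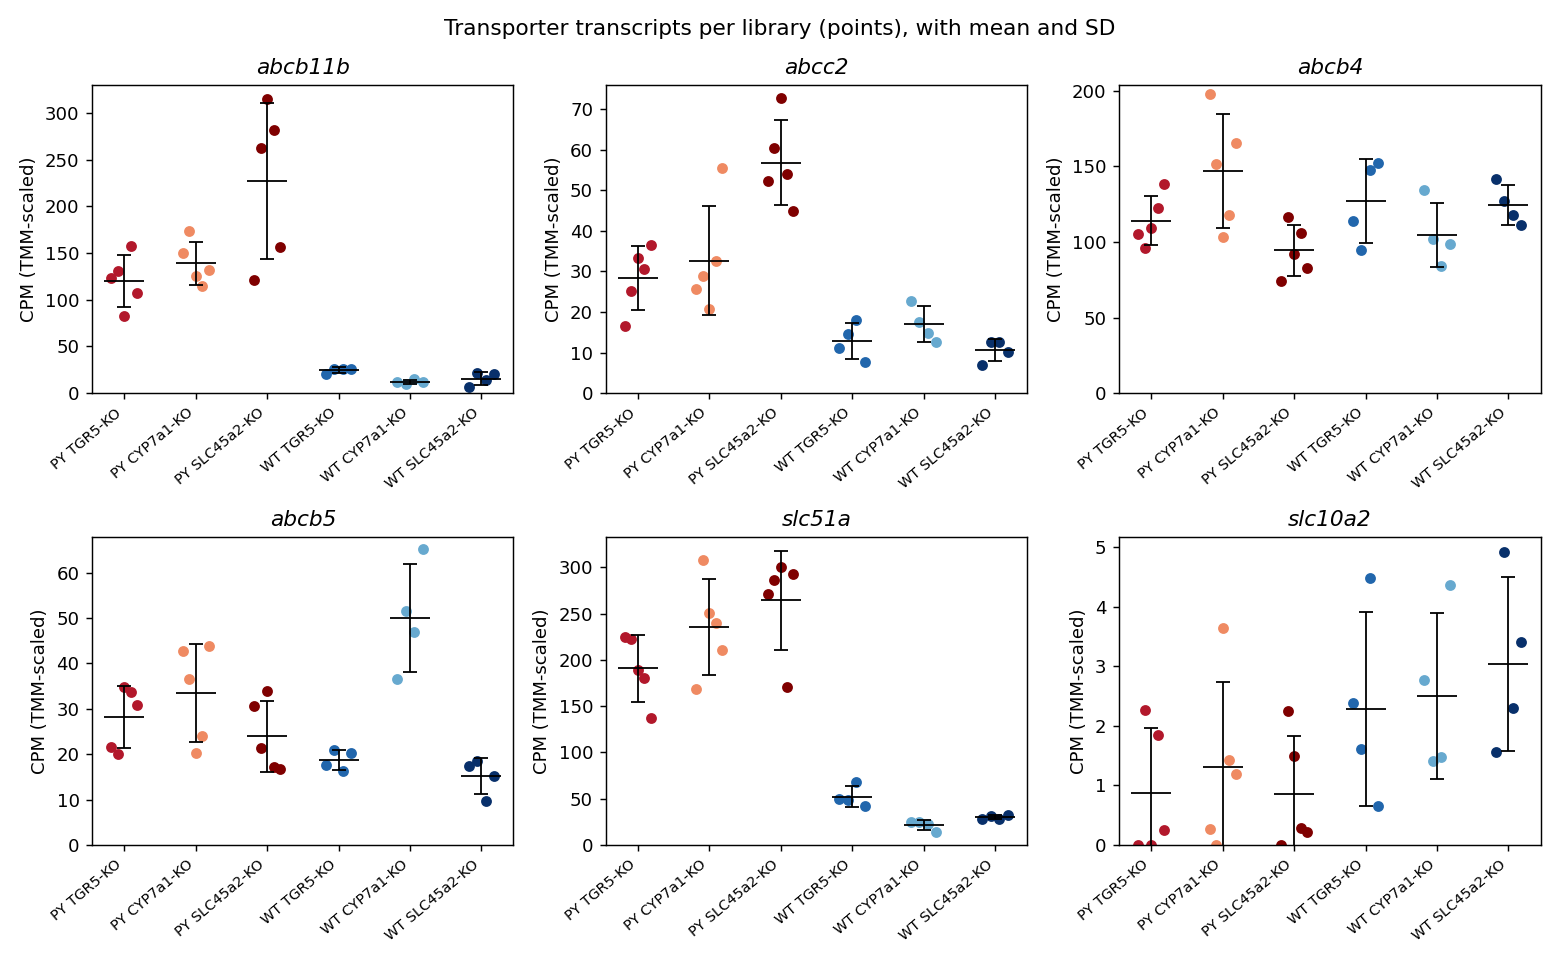
CPM (TMM-scaled, y axis, separate scale per gene) of the 6 tested transporters in each library (points), by group, with mean (long bar) and SD (whiskers, ending at 0 where the SD passes it). For *abcb11b* and *slc51a*, every PY library lay above every WT library.

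*abcb11b* (ZDB-GENE-050517-14) encodes the zebrafish counterpart of the bile salt export pump, which moves bile salts from hepatocytes into the canaliculus. PY TGR5-KO libraries 1 to 5 had 123, 131, 82.5, 158.04 and 107 CPM. PY CYP7a1-KO libraries 1 to 5 had 149.8, 173, 125, 115 and 132 CPM. PY SLC45a2-KO libraries 1 to 5 had 122, 262, 315, 282 and 156.7 CPM. All of these stood above the WT pools, but libraries 1 and 5 of PY SLC45a2-KO lay within the range of the other PY groups. WT TGR5-KO libraries 1 to 4 had 20.0, 26.1, 25.9 and 26.4 CPM. WT CYP7a1-KO libraries 1 to 4 had 11.97, 9.83, 14.8 and 12.2 CPM. WT SLC45a2-KO libraries 1 to 4 had 6.49, 21.2, 13.96 and 20.6 CPM. The lowest PY library was above the highest WT library. The group means ran from PY SLC45a2-KO (227 ± 83.7) through PY CYP7a1-KO (139 ± 23.1), PY TGR5-KO (120 ± 28.0), WT TGR5-KO (24.6 ± 3.06) and WT SLC45a2-KO (15.6 ± 6.87) to WT CYP7a1-KO (12.2 ± 2.02 CPM, SD). Neighbours in this order overlapped in all cases but PY TGR5-KO and WT TGR5-KO.

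The log2 change of *abcb11b* in PY SLC45a2-KO against WT SLC45a2-KO was 3.86 ± 0.30 (SE, adjusted p = 1.82e-10, edgeR). Under CYP7a1-KO, PY against WT, it was 3.50 ± 0.30 (adjusted p = 2.87e-09, edgeR), an 11.3-fold difference. Under TGR5-KO, PY against WT, it was 2.29 ± 0.28 (adjusted p = 1.81e-06, edgeR), a 4.89-fold difference. The rise was therefore smallest under TGR5-KO, and the test of that difference, which subtracts the TGR5-KO change in WT from that in PY, gave −1.57 ± 0.39 (adjusted p = 0.0125, edgeR). The same interaction for CYP7a1-KO was −0.36 ± 0.40 (95% interval −1.15 to 0.43) and did not pass. Here and below, 95% intervals are approximate, taken as the log2 change ± 2 SE. Within the PY background, *abcb11b* fell by 0.92 ± 0.24 on the log2 scale in PY TGR5-KO relative to PY SLC45a2-KO (adjusted p = 0.0133, edgeR), although the ranges overlapped. In PY CYP7a1-KO it fell by 0.71 ± 0.24 (adjusted p = 0.0493, edgeR). That call was lost when any of 7 of the 10 libraries was left out (PY SLC45a2-KO 2, 3 and 4 and PY CYP7a1-KO 1, 3, 4 and 5), with an adjusted p of up to 0.139, and without libraries 1 and 2 of PY CYP7a1-KO together (−0.89, adjusted p = 0.0526). Within the WT background *abcb11b* was 24.6 CPM in WT TGR5-KO against 15.6 CPM in WT SLC45a2-KO, a log2 change of 0.65 ± 0.30 that did not pass (adjusted p = 0.242, edgeR, but 0.0481 without the filter). It was higher in WT TGR5-KO than in WT CYP7a1-KO by 1.01 ± 0.31 (adjusted p = 0.0207, edgeR), a call lost without any of 6 of those 8 libraries, at an adjusted p of up to 0.0602.

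*abcc2* (ZDB-GENE-040426-1523) encodes the multidrug resistance protein that exports bilirubin and other conjugates into bile. PY TGR5-KO libraries 1 to 5 had 16.7, 25.1, 33.3, 30.5 and 36.6 CPM. PY CYP7a1-KO libraries 1 to 5 had 25.7, 28.8, 20.8, 32.6 and 55.4 CPM. PY SLC45a2-KO libraries 1 to 5 had 52.2, 60.3, 72.7, 53.9 and 44.9 CPM. Every PY TGR5-KO library was below every PY SLC45a2-KO library, and in PY CYP7a1-KO only library 5 reached the PY SLC45a2-KO range. WT TGR5-KO libraries 1 to 4 had 11.1, 14.5, 18.1 and 7.62 CPM. WT CYP7a1-KO libraries 1 to 4 had 22.8, 17.7, 14.8 and 12.5 CPM. WT SLC45a2-KO libraries 1 to 4 had 6.93, 12.6, 12.5 and 10.2 CPM. The WT groups overlapped each other, and WT TGR5-KO and WT CYP7a1-KO reached into the range of the matching PY group.

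Against WT SLC45a2-KO, *abcc2* in PY SLC45a2-KO was higher by 2.42 ± 0.27 on the log2 scale (adjusted p = 1.75e-09, edgeR), with no overlap. Its rise was 1.14 ± 0.26 in PY TGR5-KO against WT TGR5-KO (adjusted p = 0.00136, edgeR) and 0.96 ± 0.25 in PY CYP7a1-KO against WT CYP7a1-KO (adjusted p = 0.00428, edgeR). Within the PY background *abcc2* averaged 28.4 ± 7.82 CPM in PY TGR5-KO and 56.8 ± 10.4 CPM in PY SLC45a2-KO (SD, n = 5 each), a fall of 1.00 ± 0.23 on the log2 scale (adjusted p = 0.00249, edgeR). In PY CYP7a1-KO it averaged 32.7 ± 13.4 CPM, against the same PY SLC45a2-KO pools, with a log2 change of −0.79 ± 0.23 (adjusted p = 0.0148, edgeR). Without libraries 1 and 2 of PY CYP7a1-KO that change was −0.66 (adjusted p = 0.106), and without library 3 of PY SLC45a2-KO it was −0.69 (adjusted p = 0.0521). In the WT background the changes had the other sign and did not pass, at 0.28 ± 0.28 for WT TGR5-KO and 0.67 ± 0.28 for WT CYP7a1-KO against WT SLC45a2-KO (adjusted p = 0.116, edgeR, but 0.0335 with only these groups fitted). The interaction was −1.28 ± 0.36 for TGR5-KO (adjusted p = 0.0244, edgeR) and −1.46 ± 0.36 for CYP7a1-KO (adjusted p = 0.00341, edgeR). The TGR5-KO interaction was lost without WT SLC45a2-KO library 1 or 4 or WT TGR5-KO library 2 or 3, with an adjusted p of up to 0.0912.

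*abcb4* (ZDB-GENE-080204-52) belongs to the multidrug resistance family. In mammals ABCB4 moves phosphatidylcholine into bile, and in zebrafish embryos Abcb4 is known as a pump for foreign compounds. PY TGR5-KO libraries 1 to 5 had 106, 95.8, 109, 122 and 138 CPM. PY CYP7a1-KO libraries 1 to 5 had 198, 151.8, 103, 118 and 165.3 CPM. PY SLC45a2-KO libraries 1 to 5 had 74.4, 117, 92.1, 106 and 83.1 CPM. PY CYP7a1-KO held the highest libraries, but its library 3 was inside the PY SLC45a2-KO range and its library 4 just above it. WT TGR5-KO libraries 1 to 4 had 114, 94.8, 147.9 and 152.5 CPM. WT CYP7a1-KO libraries 1 to 4 had 135, 102, 83.9 and 98.9 CPM. WT SLC45a2-KO libraries 1 to 4 had 142.03, 127, 118 and 112 CPM. Neighbouring groups overlapped throughout, and the means spanned 94.4 CPM in PY SLC45a2-KO to 147.2 CPM in PY CYP7a1-KO.

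*abcb4* did not share the rise of the bile salt pump: the log2 change of PY SLC45a2-KO against WT SLC45a2-KO was −0.40 ± 0.16 (adjusted p = 0.0532, edgeR), and it passed under some other settings, with an adjusted p of 0.0197 when only these groups were fitted. It was −0.16 ± 0.16 in PY TGR5-KO against WT TGR5-KO, which did not pass. *abcb4* was higher in PY CYP7a1-KO against WT CYP7a1-KO by 0.49 ± 0.17 (adjusted p = 0.0257, edgeR). That call was lost without any of 5 of the 9 libraries (WT CYP7a1-KO 2, 3 and 4, PY CYP7a1-KO 1 and 5), with an adjusted p of up to 0.132, and without libraries 1 and 2 of PY CYP7a1-KO together (0.30, adjusted p = 0.248). Within the PY background *abcb4* averaged 147.2 ± 37.7 CPM in PY CYP7a1-KO and 94.4 ± 17.0 CPM in PY SLC45a2-KO (SD, n = 5 each), a rise of 0.64 ± 0.16 on the log2 scale (adjusted p = 0.00345, edgeR). Without libraries 1 and 2 of PY CYP7a1-KO the value was 0.43 (adjusted p = 0.0817). In PY TGR5-KO the change against PY SLC45a2-KO was 0.27 ± 0.16 and did not pass. The CYP7a1-KO interaction was 0.89 ± 0.23 (adjusted p = 0.00536, edgeR), the only positive interaction called among the 6 tested members.

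*abcb5* (ZDB-GENE-030131-6414) encodes a related ATP-binding cassette pump, named after human ABCB5, which is known for drug efflux. PY TGR5-KO libraries 1 to 5 had 21.6, 20.1, 34.8, 33.7 and 30.8 CPM. PY CYP7a1-KO libraries 1 to 5 had 42.7, 36.7, 20.2, 24.1 and 43.8 CPM. PY SLC45a2-KO libraries 1 to 5 had 30.5, 21.3, 33.8, 17.1 and 16.8 CPM. The 3 PY groups overlapped one another. WT TGR5-KO libraries 1 to 4 had 17.6, 21.0, 16.3 and 20.3 CPM. WT CYP7a1-KO libraries 1 to 4 had 36.6, 51.6, 46.9 and 65.1 CPM. WT SLC45a2-KO libraries 1 to 4 had 17.5, 18.4, 9.58 and 15.1 CPM. In the WT background every CYP7a1-KO library was above every other WT library.

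Unlike the other pumps, *abcb5* had its highest mean in a WT group, at 50.0 ± 11.8 CPM in WT CYP7a1-KO against 15.1 ± 3.95 CPM in WT SLC45a2-KO (SD, n = 4 each). This rise of 1.73 ± 0.25 on the log2 scale (adjusted p = 3.28e-06, edgeR) was the only call in that comparison among the 6 tested members. In the PY background the CYP7a1-KO change was 0.48 ± 0.22 and did not pass (adjusted p = 0.146, edgeR), and the interaction was −1.25 ± 0.33 (adjusted p = 0.0057, edgeR). *abcb5* was also lower in WT TGR5-KO than in WT CYP7a1-KO by −1.41 ± 0.24 (adjusted p = 3.08e-05, edgeR). It fell in PY CYP7a1-KO against WT CYP7a1-KO by 0.59 ± 0.22 (adjusted p = 0.0498, edgeR), a call lost without any of 6 of the 9 libraries (WT CYP7a1-KO 2, 3 and 4, PY CYP7a1-KO 2, 3 and 4), with an adjusted p of up to 0.20, and lost with DESeq2 (0.055). In PY SLC45a2-KO against WT SLC45a2-KO it was higher by 0.66 ± 0.24 (adjusted p = 0.0281, edgeR). That call was lost without any of WT SLC45a2-KO 3 and 4 and PY SLC45a2-KO 1 and 3, with an adjusted p of up to 0.138, and against the mean of all 3 WT groups the value was −0.02 (adjusted p = 0.945). For PY TGR5-KO against WT TGR5-KO the change was 0.58 ± 0.24 and did not pass (adjusted p = 0.0755, edgeR, but 0.0397 without the filter).

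*slc51a* (ZDB-GENE-040912-10) encodes the alpha subunit of the organic solute transporter, which in mammals carries bile acids out across the basolateral membrane of ileal cells and, when bile acids accumulate, of hepatocytes. Its partner subunit, slc51b, is not analysed here. PY TGR5-KO libraries 1 to 5 had 224, 223, 190, 180 and 137 CPM. PY CYP7a1-KO libraries 1 to 5 had 168.7, 308, 251, 240 and 211 CPM. PY SLC45a2-KO libraries 1 to 5 had 271, 287, 300.3, 171 and 293 CPM. Library 4 of PY SLC45a2-KO was far below the other 4 of its group. WT TGR5-KO libraries 1 to 4 had 49.5, 48.9, 68.3 and 42.0 CPM. WT CYP7a1-KO libraries 1 to 4 had 24.4, 24.7, 22.5 and 14.1 CPM. WT SLC45a2-KO libraries 1 to 4 had 28.2, 31.0, 28.1 and 32.3 CPM. All PY libraries exceeded all WT libraries, and the 3 WT groups did not overlap each other, with WT TGR5-KO highest and WT CYP7a1-KO lowest.

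*slc51a* was higher by 3.14 ± 0.19 on the log2 scale in PY SLC45a2-KO against WT SLC45a2-KO (adjusted p = 1.38e-17, edgeR). The rise was 3.46 ± 0.20 in PY CYP7a1-KO against WT CYP7a1-KO (adjusted p = 1.35e-18, edgeR) and 1.87 ± 0.18 in PY TGR5-KO against WT TGR5-KO (adjusted p = 7.44e-11, edgeR). The TGR5-KO interaction was −1.27 ± 0.25 (adjusted p = 0.000543, edgeR), and that of CYP7a1-KO was 0.32 ± 0.25 and did not pass. The TGR5-KO values had opposite signs in the backgrounds. In the WT background *slc51a* averaged 52.2 ± 11.2 CPM in WT TGR5-KO and 29.9 ± 2.09 CPM in WT SLC45a2-KO (SD, n = 4 each), a rise of 0.80 ± 0.19 on the log2 scale (adjusted p = 0.00458, edgeR). Without library 3 of WT TGR5-KO the adjusted p was 0.0504. WT CYP7a1-KO stood at 21.4 ± 5.00 CPM, against the same WT SLC45a2-KO pools, and its log2 change of −0.49 ± 0.19 did not pass (adjusted p = 0.1, edgeR, but 0.0395 with only these groups fitted). In the PY background it averaged 191 ± 35.8 CPM in PY TGR5-KO and 264 ± 53.6 CPM in PY SLC45a2-KO (SD, n = 5 each), a fall of 0.47 ± 0.16 on the log2 scale (adjusted p = 0.0435, edgeR). That fall was lost without any of 7 of the 10 libraries (PY SLC45a2-KO 1, 2, 3 and 5 and PY TGR5-KO 3, 4 and 5), with an adjusted p of up to 0.128. In PY CYP7a1-KO the change against PY SLC45a2-KO was −0.17 ± 0.16 (95% interval −0.48 to 0.15) and did not pass. *slc51a* was higher in WT TGR5-KO than in WT CYP7a1-KO by 1.29 ± 0.19 (adjusted p = 2.71e-06, edgeR).

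*slc10a2* (ZDB-GENE-040426-1328) encodes the sodium-dependent carrier that takes bile acids up from the ileal lumen. It was near the limit of detection, with 222 counts in all, in 23 of the 27 libraries. Counts in PY TGR5-KO libraries 1 to 5 were 0, 10, 0, 7 and 1. In PY CYP7a1-KO they were 1, 0, 17, 8 and 6, and in PY SLC45a2-KO they were 0, 11, 6, 1 and 1. Libraries without a count occurred in the PY groups only. Counts in WT TGR5-KO libraries 1 to 4 were 11, 7, 22 and 3. In WT CYP7a1-KO they were 12, 7, 9 and 23, and in WT SLC45a2-KO they were 7, 23, 11 and 18. The PY and WT ranges overlapped. No comparison was called, and the log2 change of PY SLC45a2-KO against WT SLC45a2-KO was −1.79 ± 0.82 (adjusted p = 0.084, edgeR). At this depth its 95% interval ran from −3.42 to −0.16, and the change passed when library 2 of PY SLC45a2-KO was left out (−2.59, adjusted p = 0.0263) or no filter was used (adjusted p = 0.0397).

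*abcg5* (ZDB-GENE-050517-40) and *abcg8* (ZDB-GENE-050517-41) encode the subunits of the sterol exporter that secretes cholesterol and plant sterols into bile and gut lumen. Both had 0 counts in every library, which allows up to 0.481 to 0.888 CPM per library and up to 0.0243 CPM over all libraries pooled. These limits cover counting error only, and nothing can be compared between groups. Of their neighbours in the RefSeq gene order, *dync2li1* also had 0 counts and *lrpprc* had 572, and whether the counting covered *abcg5* and *abcg8* was not tested, so the limits hold only if it did.

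**Figure D2:**
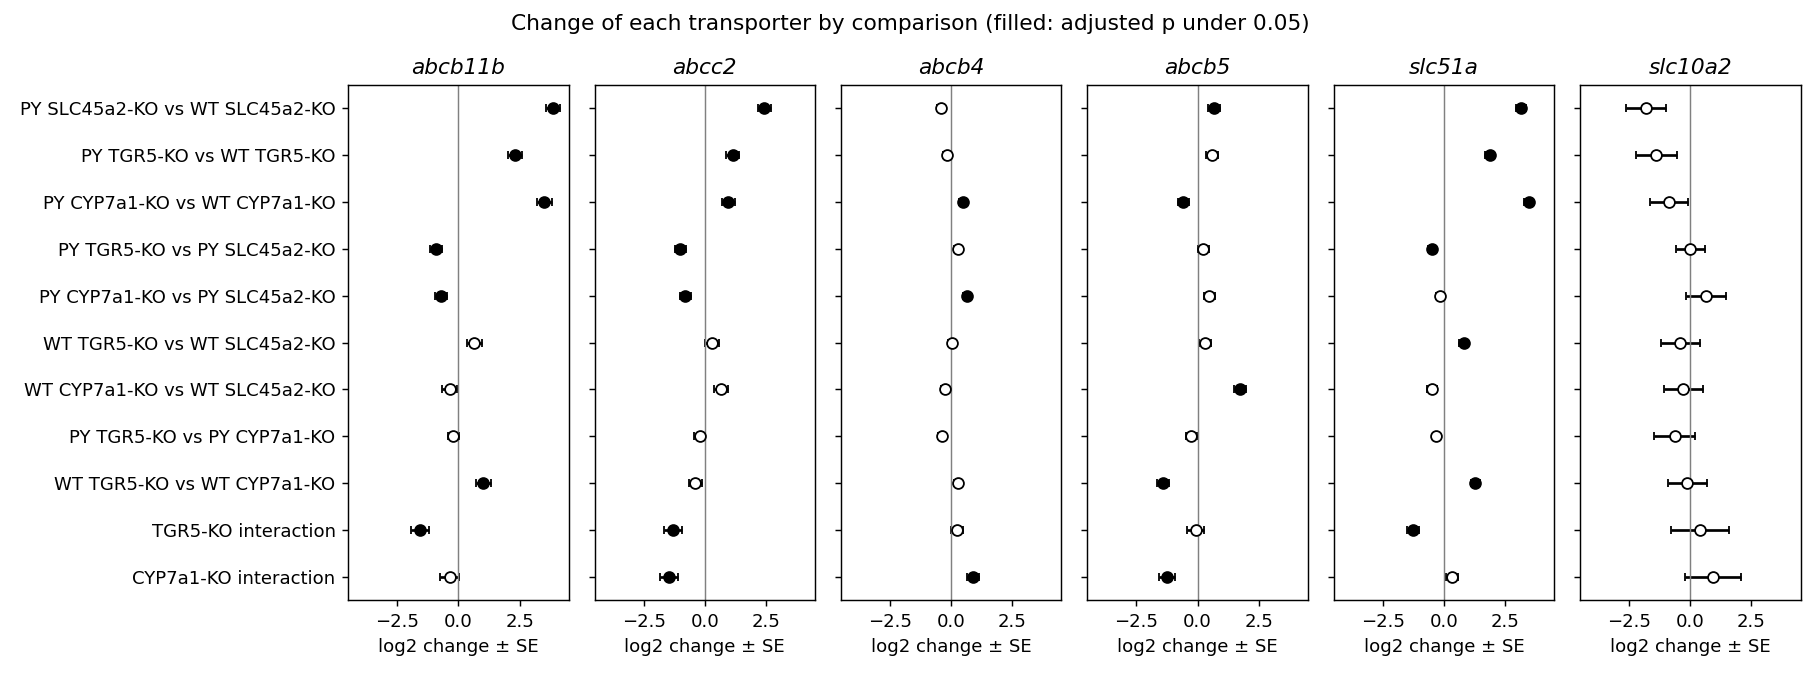
Log2 change (x axis) with SE of each tested transporter in the 9 comparisons between groups and the 2 interactions (rows; first-named group over second, and for interactions the change by knockout in PY less that in WT). Filled points passed an adjusted p under 0.05. *abcb11b*, *abcc2* and *slc51a* are filled and positive in the top 3 rows, and negative and filled in the PY TGR5-KO row.

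In PY SLC45a2-KO against WT SLC45a2-KO, 4 of the 6 tested were called, all higher, where 35.6% of all tested genes were called, 17.9% higher and 17.7% lower. In PY TGR5-KO against WT TGR5-KO 3 were called, all higher, against 19.9% of all genes called, 11.5% higher and 8.42% lower. In PY CYP7a1-KO against WT CYP7a1-KO 4 were higher and 1 lower, against 23.2% of all genes called, 13.3% higher and 9.93% lower. The median log2 change over the 6 was 1.54, 0.86 and 0.73 in these comparisons, in the order given, and that of all tested genes was −0.02, 0.02 and 0.01. Members and lists were chosen with earlier results of these data known. Shares called, here and below, therefore describe these sets and test nothing about them.

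In PY TGR5-KO against PY SLC45a2-KO 3 of 6 were called, all lower, where 11.4% of all genes were called, 5.01% lower and 6.34% higher. The members' median was −0.24, and that of all genes was 0.03. In PY CYP7a1-KO against PY SLC45a2-KO 2 were lower and 1 higher, where 13.4% of all genes were called, 5.9% lower and 7.49% higher. Without libraries 1 and 2 of PY CYP7a1-KO none of the 6 was called, where 1897 of 15961 genes were called. The log2 changes were then −0.89 for *abcb11b*, −0.66 for *abcc2* and 0.43 for *abcb4*, against −0.71, −0.79 and 0.64 with all libraries. Against WT CYP7a1-KO, PY CYP7a1-KO without libraries 1 and 2 kept the calls of *abcb11b* (3.34), *slc51a* (3.45), *abcc2* (1.103) and *abcb5* (−0.78). Their adjusted p was up to 0.0264 in edgeR. The called CYP7a1-KO interactions were then −1.32 for *abcc2*, 0.69 for *abcb4* and −1.44 for *abcb5*, at an adjusted p of up to 0.0294 in edgeR. These comparisons share the PY SLC45a2-KO pools with each other and with PY SLC45a2-KO against WT SLC45a2-KO. PY TGR5-KO and PY CYP7a1-KO did not differ by test in any of the 6, although *abcb4* had an unadjusted p under 0.05 (−0.37 ± 0.16), DESeq2 also called 0, and 0.135% of all genes were called, 0.0773% higher and 0.058% lower.

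In the WT background 1 of 6 was called for WT TGR5-KO against WT SLC45a2-KO, *slc51a*, where 6.49% of all genes were called, 3.1% higher and 3.4% lower. For WT CYP7a1-KO against WT SLC45a2-KO 1 of 6 was called, *abcb5*, against 11.6% of all genes, 4.14% higher and 7.48% lower. The direct comparison of WT TGR5-KO with WT CYP7a1-KO called 2 higher and 1 lower, against 21.1% of all genes, 11.8% higher and 9.27% lower. The TGR5-KO interaction called 3 of 6, all negative, against 6.7% of all genes called, 2.76% negative and 3.94% positive. The CYP7a1-KO interaction called 2 negative and 1 positive, against 17.8% of all genes called, 6.98% negative and 10.8% positive.

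The summed level of tissue markers moved between the groups as well. The 19 hepatocyte markers summed to 21230 to 28970 CPM in PY TGR5-KO, 18160 to 28400 in PY CYP7a1-KO, 21720 to 30280 in PY SLC45a2-KO, 16260 to 19870 in WT TGR5-KO, 9834 to 11410 in WT CYP7a1-KO and 14880 to 19370 in WT SLC45a2-KO. The 20 intestinal epithelium markers, of which *fabp2* and *mep1b* were at 0, summed to 2162 to 2763 CPM in PY TGR5-KO, 2162 to 3040 in PY CYP7a1-KO, 1578 to 1821 in PY SLC45a2-KO, 3356 to 4026 in WT TGR5-KO, 1922 to 2498 in WT CYP7a1-KO and 3447 to 3686 in WT SLC45a2-KO. PY SLC45a2-KO was thus the lowest group in gut markers and WT CYP7a1-KO the lowest in hepatocyte markers.

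Kidney proximal tubule, which also holds bile acid carriers, was represented by 10 markers with *slc20a1a* at 0. They summed to 98.7 to 190 CPM in PY TGR5-KO, 140.9 to 205 in PY CYP7a1-KO, 92.8 to 134 in PY SLC45a2-KO, 170 to 240 in WT TGR5-KO, 189 to 252.4 in WT CYP7a1-KO and 166.4 to 214 in WT SLC45a2-KO. The 8 bile duct markers summed to 269 to 377 CPM in PY TGR5-KO, 351 to 565 in PY CYP7a1-KO, 471 to 698 in PY SLC45a2-KO, 81.0 to 109 in WT TGR5-KO, 68.2 to 88.9 in WT CYP7a1-KO and 85.4 to 106 in WT SLC45a2-KO. Most of that bile duct sum was *anxa4*, with 512 ± 98.3 CPM in PY SLC45a2-KO, against 74.7 ± 8.39 CPM in WT SLC45a2-KO (SD, n = 5 and 4), while *epcam*, *krt18a.1* and *her6* were at 0 in all groups and *hnf1ba* in all but WT CYP7a1-KO. Only 3 bile duct markers were tested. In PY SLC45a2-KO against WT SLC45a2-KO 2 of them were higher and 1 was not called, where 35.6% of all genes were called. Against the mean of the 3 WT groups, *anxa4* (2.99) and *sox9b* (1.52) were higher and *alcama* was lower (−1.80, adjusted p = 0.021, edgeR). The part of these marker changes in the transporter changes was not tested beyond the ratios that follow. Those ratios cover no comparison with WT TGR5-KO or WT CYP7a1-KO.

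**Figure D3:**
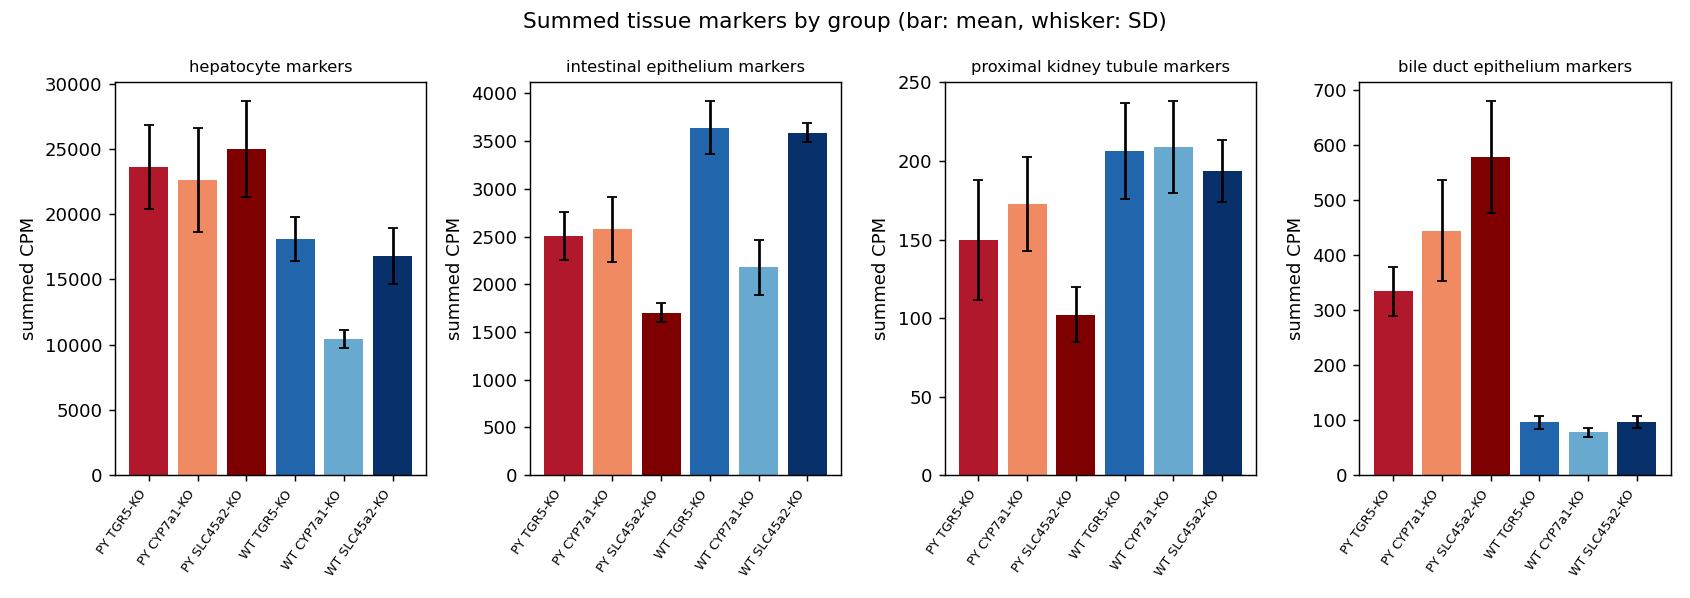
Summed CPM of 4 tissue marker lists (y axes from 0, separate scale per list) by group, as mean (bar) with SD (whisker), n = 5 in PY and 4 in WT groups. Hepatocyte and bile duct sums are higher in PY than in WT groups, the bile duct sum being mostly *anxa4*. The intestinal sum is lowest in PY SLC45a2-KO.

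Set against the summed hepatocyte markers, *abcb11b*, *slc51a* and *abcc2* were higher in PY SLC45a2-KO than in WT SLC45a2-KO. The 19 markers did not move together. In this comparison 7 were higher, 3 lower and 9 not called, or 52.6% of the list against 35.6% of all genes. Against the mean of the 3 WT groups, *fabp10a* was higher by 2.28 and *ahsg2* lower by −4.67. The size of each ratio therefore depends on the denominator. Per 1000 CPM of hepatocyte markers, *abcb11b* was at 8.63 CPM in PY SLC45a2-KO, against 0.88 CPM in WT SLC45a2-KO, as geometric means. *slc51a* was at 10.5 CPM in PY SLC45a2-KO, against 1.82 CPM in WT SLC45a2-KO, and *abcc2* at 2.28 CPM in PY SLC45a2-KO, against 0.648 CPM in WT SLC45a2-KO. The differences in log2 ratio were 3.29 ± 0.43 for *abcb11b*, 2.52 ± 0.17 for *slc51a* and 1.82 ± 0.14 for *abcc2* (SE). For *abcb4* the ratio was 3.78 CPM per 1000 in PY SLC45a2-KO, against 7.47 in WT SLC45a2-KO, a log2 difference of −0.98 ± 0.19, and for *slc10a2* it was −2.19 ± 0.50. With the mean log2 level of the markers as denominator, the *slc10a2* difference no longer passed (−1.75, adjusted p = 0.0571, exact permutation test). With the summed markers, these 5 each had p = 0.0159 in an exact two-sided permutation test, the smallest that 5 against 4 pools allow, and an adjusted p of 0.0301 over 36 ratio tests. Of these, *slc10a2*, an ileal gene, had counts of 0, 11, 6, 1 and 1 in PY SLC45a2-KO. The 0.5 CPM added before the log therefore weighs on its ratio. By CPM *slc10a2* was not called in this comparison (adjusted p = 0.084, edgeR). *abcb5* had a difference of 0.05 ± 0.31 (adjusted p = 0.918, exact permutation test). With *fabp10a* alone as denominator the *abcb5* difference was −1.319 (adjusted p = 0.0286, exact permutation test). This change of denominator shifts the differences of all the transporters in the comparison alike.

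Between PY TGR5-KO and PY SLC45a2-KO the ratio to hepatocyte markers passed the test for *abcc2* alone, at 1.19 CPM per 1000 in PY TGR5-KO against 2.28 in PY SLC45a2-KO (log2 difference −0.94 ± 0.17, exact permutation test, adjusted p = 0.0301). That of *abcb11b* was 5.04 CPM per 1000 in PY TGR5-KO and 8.63 in PY SLC45a2-KO, which did not pass (−0.78 ± 0.32, exact permutation test, adjusted p = 0.0909). Between PY CYP7a1-KO and PY SLC45a2-KO the ratio fell for *abcc2* (−0.70 ± 0.15) and rose for *abcb4* (0.77 ± 0.24), both with an adjusted p of 0.0301 in the exact permutation test. With *fabp10a* alone as denominator, *abcc2* in PY CYP7a1-KO no longer passed (−0.33, adjusted p = 0.286, exact permutation test). With the same denominator *abcb5* in PY CYP7a1-KO did pass, as higher (0.996, adjusted p = 0.0286, exact permutation test). With the mean log2 level of the markers as denominator, *abcb4* no longer passed (0.49, adjusted p = 0.0571) and *abcb11b* did (−0.76, adjusted p = 0.0318, exact permutation test). Without libraries 1 and 2 of PY CYP7a1-KO the ratios were −0.65 for *abcc2* and 0.52 for *abcb4* (adjusted p = 0.0677 each, exact permutation test), a setting chosen after seeing the data in which 3 pools against 5 limit the smallest p.

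Set against the intestinal markers, which were lowest in PY SLC45a2-KO, the differences of *abcb11b*, *slc51a* and *abcc2* were larger than against the hepatocyte markers. Their log2 ratio differences were 4.95 ± 0.49, 4.17 ± 0.16 and 3.47 ± 0.24 in PY SLC45a2-KO against WT SLC45a2-KO, and *abcb5* (1.70 ± 0.31) and *abcb4* (0.67 ± 0.13) were also higher (adjusted p = 0.0301 each, exact permutation test). *abcb4* therefore had opposite signs against the hepatocyte and the intestinal markers. In PY TGR5-KO against PY SLC45a2-KO *abcb11b*, *slc51a* and *abcc2* were lower by this ratio, with differences of −1.41 ± 0.34, −1.02 ± 0.21 and −1.57 ± 0.27 (adjusted p = 0.0301 each, exact permutation test). In PY CYP7a1-KO against PY SLC45a2-KO they were −1.22 ± 0.32, −0.75 ± 0.17 and −1.44 ± 0.29 (adjusted p = 0.0301 each, exact permutation test). Leaving out libraries 1 and 2 of PY CYP7a1-KO gave −1.42, −0.79 and −1.37 (adjusted p = 0.0677 each, exact permutation test). The marker sum is shared by all transporters in a comparison, so a change in it shifts every ratio alike. By CPM, with all libraries, *slc51a* was not called in PY CYP7a1-KO against PY SLC45a2-KO (−0.17 ± 0.16). Nor was *abcb4* called by CPM in PY SLC45a2-KO against WT SLC45a2-KO (−0.40 ± 0.16). As built, each ratio difference is the log2 change of the transporter less that of the marker sum. The mean intestinal sum was 1703 CPM in PY SLC45a2-KO, 3591 in WT SLC45a2-KO, 2504 in PY TGR5-KO and 2576 in PY CYP7a1-KO. The mean hepatocyte sum was 24990 CPM in PY SLC45a2-KO, against 16760 CPM in WT SLC45a2-KO. The *slc51a* and *abcb4* ratios named here, whose CPM changes were not called, therefore include these shifts of the sums. The cause of the shifts was not tested. The intestinal ratio of *slc10a2*, an ileal gene, differed by −0.53 ± 0.56 in PY SLC45a2-KO against WT SLC45a2-KO and did not pass.

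**Figure D4:**
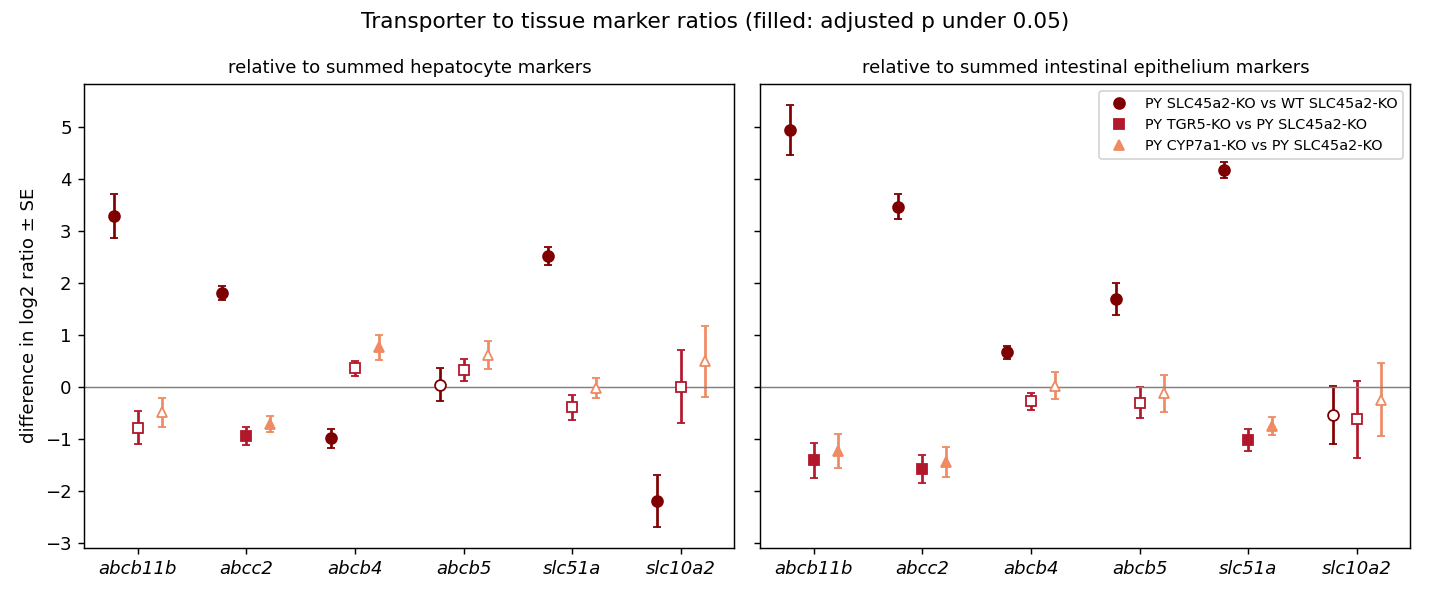
Difference in log2 ratio (y axis, ± SE) of each transporter to the summed hepatocyte (left) or intestinal (right) markers, for 3 comparisons (symbols; first-named group minus second). Filled symbols had an adjusted p under 0.05 in an exact permutation test, as *abcb11b*, *abcc2* and *slc51a* had in PY SLC45a2-KO against WT SLC45a2-KO in both panels.

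Other genes that carry bile acids, lipids or organic anions are given next. Of 23 in the table, 14 were tested. In PY SLC45a2-KO against WT SLC45a2-KO 3 were higher and 4 lower, 50.0% of the list where 35.6% of all genes were called, with a median log2 change of 0.08 against −0.02 for all genes. *abcg2a*, a homologue of the efflux pump ABCG2, was higher by 1.22 ± 0.25 (adjusted p = 0.000349, edgeR). *slc47a1*, an organic cation exporter, was lower by −1.78 ± 0.35 (adjusted p = 4.6e-05, edgeR). *slco1d1*, an organic anion uptake carrier, was lower by −1.25 ± 0.22 (adjusted p = 6.82e-06, edgeR), and *fabp6*, the ileal bile acid binding protein, by −1.08 ± 0.27 (adjusted p = 0.00311, edgeR).

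For TGR5-KO, PY against WT, 2 of these 14 were higher and 1 lower, and the same counts held for CYP7a1-KO. That is 21.4% of the list in each, near the 19.9% of all genes called for TGR5-KO and the 23.2% for CYP7a1-KO. *abcg2a* was higher in PY by 1.44 ± 0.26 under TGR5-KO and by 1.32 ± 0.25 under CYP7a1-KO. *slco1d1* was lower in PY, by −0.69 ± 0.21 under TGR5-KO (adjusted p = 0.0147, edgeR, but 0.0698 without WT TGR5-KO library 2) and by −1.17 ± 0.22 under CYP7a1-KO. In PY TGR5-KO against PY SLC45a2-KO 1 was higher, *slc47a1* (1.26 ± 0.34, adjusted p = 0.00956, edgeR), and 1 lower, *abcg2a* (−0.76 ± 0.23, adjusted p = 0.0314, edgeR), or 14.3% of the list against 11.4% of all genes. The *abcg2a* call was lost without any of 5 of the 10 libraries (PY SLC45a2-KO 2, 3 and 4 and PY TGR5-KO 1 and 2), with an adjusted p of up to 0.0859. In PY CYP7a1-KO against PY SLC45a2-KO 3 were higher and 0 lower, or 21.4% against 13.4% of all genes, with *slc47a1* at 1.16 ± 0.34 (adjusted p = 0.016, edgeR, but 0.0654 without PY SLC45a2-KO library 2 and 0.0683 with only these groups fitted). *abcb11a*, the paralogue of the bile salt pump, was also among them (1.36 ± 0.41, adjusted p = 0.021, edgeR), at 6.43 ± 2.79 CPM in PY CYP7a1-KO and 2.47 ± 1.08 CPM in PY SLC45a2-KO (SD, n = 5 each). Its change was 0.86 without libraries 1 and 2 of PY CYP7a1-KO (adjusted p = 0.237, edgeR), and the call was also lost without any of PY SLC45a2-KO 1 and 2 and PY CYP7a1-KO 1, with an adjusted p of up to 0.088. It did not rise with *abcb11b* in PY SLC45a2-KO, at 2.47 CPM against 3.27 CPM in WT SLC45a2-KO (−0.40, not called). Against WT CYP7a1-KO, *abcb11a* was called higher in PY CYP7a1-KO (1.17, adjusted p = 0.042, edgeR). That call was lost without libraries 1 and 2 of PY CYP7a1-KO (0.69, adjusted p = 0.333, edgeR) and without any of 5 single libraries. How reads were assigned between such paralogues is not given in the sources used here. *slc10a1*, the hepatocyte bile acid uptake carrier, had 39 counts in all and was too low to test. In the WT background 0 were higher and 1 lower for each knockout against WT SLC45a2-KO, *abcg2a* in WT TGR5-KO (−0.98 ± 0.27) and *fabp6* in WT CYP7a1-KO (−1.29 ± 0.29). This was 7.14% of the list each time, where 6.49% of all genes were called for WT TGR5-KO and 11.6% for WT CYP7a1-KO. The call of *abcg2a* was lost without any of 5 of the 8 libraries (WT TGR5-KO 1, 2 and 3 and WT SLC45a2-KO 2 and 4), with an adjusted p of up to 0.0814.

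Genes of bile acid synthesis, its receptors and feedback numbered 23 in the table, of which 15 were tested. In PY SLC45a2-KO against WT SLC45a2-KO 6 were higher and 2 lower, 53.3% of the list where 35.6% of all genes were called, with a median log2 change of 0.31 against −0.02 for all genes. *nr1h5*, a farnesoid X receptor of the beta type, was higher by 3.02 ± 0.32, *nr5a2*, the liver receptor homologue 1, by 2.02 ± 0.19, and *cyp7a1* by 1.86 ± 0.37. Set against all WT pools, as the mean of their 3 groups, *cyp7a1* had the opposite sign, at −0.77 (adjusted p = 0.0135, edgeR). *slc27a2a*, an acyl-CoA synthetase and fatty acid carrier gene, was lower by −2.60 ± 0.28. In PY TGR5-KO against WT TGR5-KO 6 were higher and 3 lower, and in PY CYP7a1-KO against WT CYP7a1-KO 4 were higher and 4 lower. These were 9 of 15 under TGR5-KO, against 19.9% of all genes, and 53.3% of the list under CYP7a1-KO, against 23.2% of all genes. Under CYP7a1-KO the calls of the list members *nr5a5* and *klb* were lost without libraries 1 and 2 of PY CYP7a1-KO. Their values were then 0.50 (adjusted p = 0.17, edgeR) and −0.68 (adjusted p = 0.179, edgeR). Each call was also lost without any of 7 single libraries. *cyp7a1* was lower in PY CYP7a1-KO (−1.87 ± 0.28), against the WT CYP7a1-KO pools in which it stood at 44.7 CPM.

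Within the PY background 1 of the 15 was higher and 2 lower in PY TGR5-KO against PY SLC45a2-KO, 20.0% of the list against 11.4% of all genes. In PY CYP7a1-KO against PY SLC45a2-KO 1 was higher and 4 lower, 33.3% of the list against 13.4% of all genes. Among the 4 lower was *nr0b2a*, the small heterodimer partner (−1.29 ± 0.43, adjusted p = 0.0498, edgeR). That call was lost without any of 8 single libraries, at an adjusted p of up to 0.121. It was also lost without libraries 1 and 2 of PY CYP7a1-KO together (adjusted p = 0.112, edgeR). *nr1h5* averaged 14.6 ± 5.99 CPM in PY TGR5-KO, 12.1 ± 2.54 in PY CYP7a1-KO and 36.2 ± 7.38 in PY SLC45a2-KO (SD, n = 5 each), and *nr5a2* averaged 33.0 ± 3.89, 40.5 ± 8.72 and 63.4 ± 14.4 CPM in those groups. *nr1h5* was lower by −1.31 ± 0.27 in PY TGR5-KO and −1.58 ± 0.27 in PY CYP7a1-KO, and *nr5a2* by −0.94 ± 0.17 in PY TGR5-KO, all past the test in edgeR. *cyp8b1*, the 12-hydroxylase of bile acid synthesis, was higher in PY CYP7a1-KO by 1.93 ± 0.32 (adjusted p = 6.17e-05, edgeR). Both changes in PY CYP7a1-KO, at −1.51 for *nr1h5* and 2.07 for *cyp8b1* without its libraries 1 and 2, were still past the test in edgeR. In the WT background 2 were higher and 3 lower for each knockout, or 33.3% of the list. Of all genes, 6.49% were called for WT TGR5-KO and 11.6% for WT CYP7a1-KO. *cyp7a1* was higher by 3.65 ± 0.36 in WT TGR5-KO and 4.23 ± 0.36 in WT CYP7a1-KO, and *nr0b2a* lower by −2.59 ± 0.50 and −2.90 ± 0.51. *nr1h5* was lower in WT TGR5-KO too (−1.865 ± 0.44, adjusted p = 0.00418, edgeR, but 0.0624 without WT SLC45a2-KO library 2). *cyp8b1* was higher by 2.02 ± 0.36 in WT TGR5-KO and 1.22 ± 0.36 in WT CYP7a1-KO. The WT CYP7a1-KO call (adjusted p = 0.0222, edgeR) was lost without any of 4 single libraries, at up to 0.0856. Neither *nr1h5* (−0.595) nor *cyp8b1* (0.717) had a called CYP7a1-KO interaction. *abcb11b* had no called change in these WT knockouts.

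**Figure D5:**
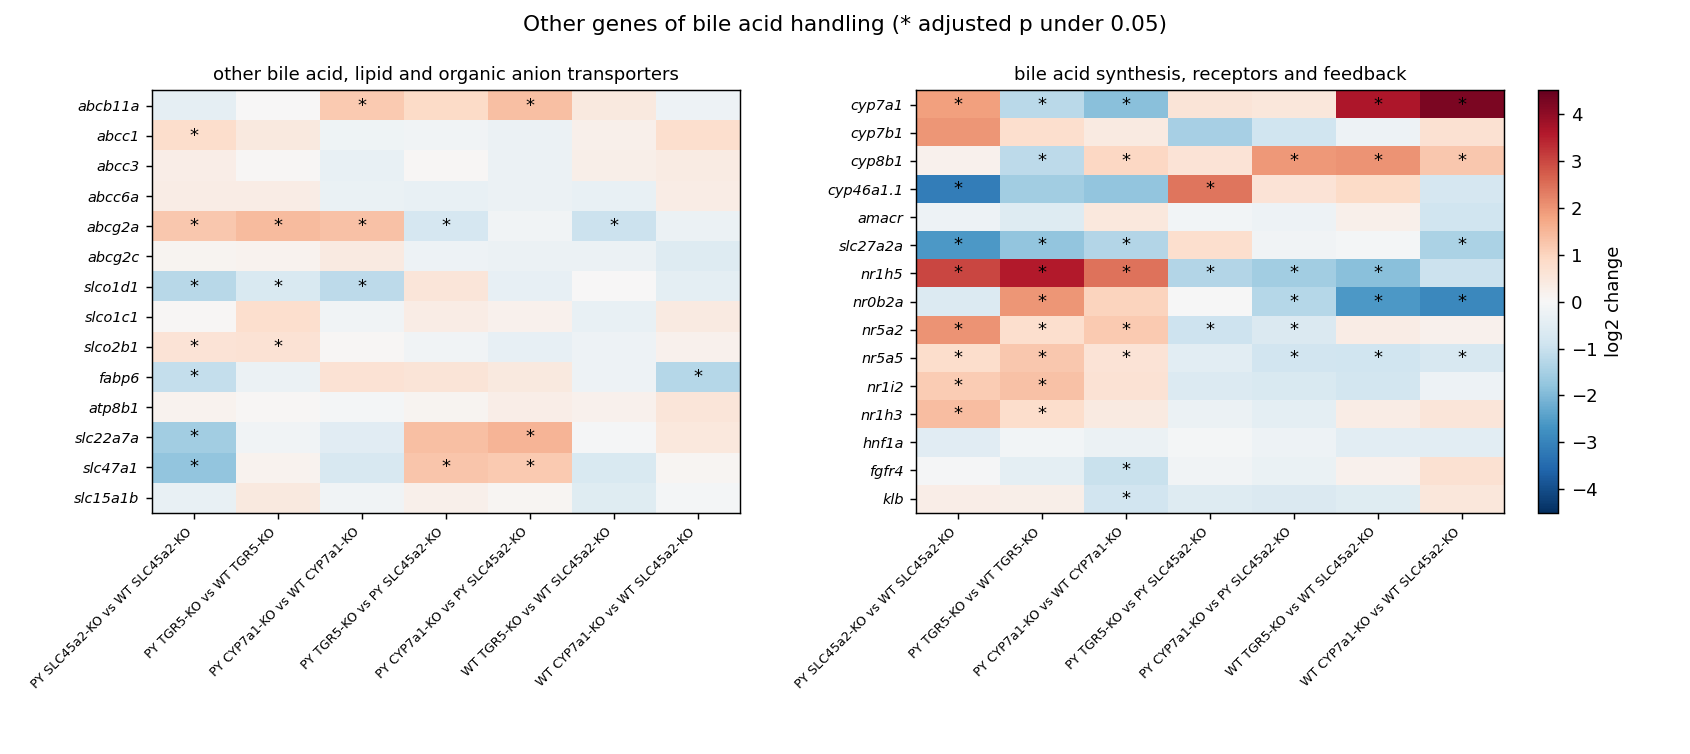
Log2 change (colour) of the tested genes of 2 other lists of bile acid handling (rows) in 7 comparisons (columns, first-named group over second). Asterisks mark an adjusted p under 0.05, as for *nr1h5* and *nr5a2*, higher in the first 3 columns and lower in the next 2.

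The named genes whose 6 group means followed those of a transporter most closely were found by the root mean square difference of centred log2 means. The search covered up to 8457 tested genes averaging at least 5 CPM. Entries with locus or clone symbols, such as those starting with si: or zgc:, were left out. For *abcb11b* they were *lsp1* (0.12), *fosab* (0.17) and *cfhl2* (0.21), and for *slc51a* they were *cfhl2* (0.17), *sgk1* (0.22) and *wnk1b* (0.23). For *abcc2* they were *lygl1* (0.12), *tgfbr2a* (0.13) and *rela* (0.14). For *abcb4* they were *pacs2* (0.03), *wls* (0.06) and *tiam1a* (0.06), whose means, like those of *abcb4*, varied little. For *abcb5* they were *ucp1* (0.20), *evpla* (0.21) and *TSTA3 (1 of many)* (0.23). For *slc10a2*, from few counts, they were *parm1* (0.08), *acat2* (0.09) and *rbp5* (0.11). *cfhl2* is listed for both *abcb11b* and *slc51a*, which themselves had the PY groups in the same order of means.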

How the data were processed

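Pools of whole larvae were sequenced as 3′ mRNA libraries, per the labels' protocols. The deposited table holds whole-number counts per gene and CPM that the authors computed from them, per the file headers: each deposited CPM equalled the count over its library total, scaled, within 5e-04. The builds GRCz11 and danRer10 are named without a role, per the submitters' processing notes. No aligner, counter or strand setting is given in the sources used here. Groups came from sample titles.

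Counts were tested in R 4.3.3 with edgeR 4.0.16: TMM factors (0.909 to 1.07), the default expression filter, group means fitted to the 27 libraries together, robust quasi-likelihood estimation, and Benjamini-Hochberg adjustment over 15521 genes at 0.05, called here the adjusted p. SE is the log2 change over the square root of F. The procedure was tested on simulated data. Total counts of 3377345 to 6238251 set the precision, and a count of 0 allows up to 3 counts (0.481 to 0.888 CPM). Libraries within a group had r of 0.889 to 0.957 in log2 CPM and a chi-square per degree of freedom of 4.21 to 21.8, so that none was a copy of another.

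Ratios to marker lists were log2(CPM + 0.5) minus log2 of the summed marker CPM, tested in scipy 1.17.1 by exact two-sided permutation and adjusted over 36 tests. The 48 planned held *abcg5* and *abcg8*, which had no counts. Named were all members, up to 4 called genes per pathway list and comparison at a mean of at least 5 CPM, *abcb11a*, *slc10a1*, *cyp7a1*, *gpbar1* and the 3 genes nearest to each member, without locus or clone symbols. The members, lists and tests were chosen with earlier results of these data known. Alternatives were other scalings, filters, designs, thinning, DESeq2 1.42.0, and leaving out libraries.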

Additional observations from a re-analysis of the deposited data

Results flagged for a closer look

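Of 36 sets of a transporter in a group, 2 held a library flagged by its gap to the next library, relative to the range of the group. This is a check that chance passes for about 1 in 20 sets. *abcb11b* in WT TGR5-KO was lowest in replicate 1 at 19.99 CPM, with the others close together at 25.87 to 26.36 CPM. *slc51a* in PY SLC45a2-KO was lowest in replicate 4 at 170.5 CPM, with the next library at 271.0 CPM.

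The knockout change differed between the backgrounds, by the interaction test in edgeR, in 3 of the 6 tested members for each knockout. Of all tested genes, 6.7% were called for the TGR5-KO interaction and 17.8% for that of CYP7a1-KO. For TGR5-KO the change in PY minus that in WT was −1.57 for *abcb11b*, −1.27 for *slc51a* and −1.28 for *abcc2*, on the log2 scale. For CYP7a1-KO it was −1.46 for *abcc2*, 0.89 for *abcb4* and −1.25 for *abcb5*. The TGR5-KO call of *abcc2* was lost without any of 4 single libraries, with an adjusted p of up to 0.0912 in edgeR.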

How the results depend on the processing

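Values that moved are grouped here by setting, and the cause of a move was not tested. When only the groups compared were fitted, 3 transporters rather than 5 were called in PY CYP7a1-KO against WT CYP7a1-KO. Of all genes, 2883 of 13926 were then called, against 3604 of 15521 with all groups fitted. In WT CYP7a1-KO against WT SLC45a2-KO 3 transporters rather than 1 were called. There 2962 of 13432 genes were called, against 1804 of 15521 with all groups fitted. With no filter on low counts, 2 transporters were called in WT TGR5-KO and 3 in WT CYP7a1-KO, each against WT SLC45a2-KO. Of 27928 genes, 1092 and 1849 were called there. Without libraries 1 and 2 of PY CYP7a1-KO, 0 transporters were called against PY SLC45a2-KO, where 1897 of 15961 genes were called. *abcb5* in PY SLC45a2-KO against the mean of the 3 WT groups reversed to −0.02, and its ratio to *fabp10a* alone reversed to −1.319. With that denominator 3 ratios were called in PY TGR5-KO against PY SLC45a2-KO, those of *abcc2*, *abcb4* (0.689) and *abcb5* (0.665). The intestinal counterpart had no value because *fabp2* had 0 counts. The *cyp7a1* value in PY SLC45a2-KO reversed to −0.77 against the mean of the 3 WT groups. Without libraries 1 and 2 of PY CYP7a1-KO, a setting added for the ratios after seeing the data, 0 hepatocyte and 0 intestinal ratios were called against PY SLC45a2-KO, with 3 pools limiting the smallest p.

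Leaving out 1 library gave 3 to 6 transporters called in PY SLC45a2-KO against WT SLC45a2-KO, 3 to 4 in PY TGR5-KO against WT TGR5-KO and 3 to 5 in PY CYP7a1-KO against WT CYP7a1-KO. Of 15448 to 16057 tested genes, 4860 to 5382, 2366 to 3211 and 2830 to 3667 were called, in that order. Such refits gave 2 to 3 in PY TGR5-KO and 1 to 3 in PY CYP7a1-KO, each against PY SLC45a2-KO. All genes called there numbered 1314 to 1868 and 1554 to 2295. They gave 0 to 1 transporters in WT TGR5-KO and 1 in WT CYP7a1-KO, each against WT SLC45a2-KO. All genes called there numbered 694 to 820 and 1233 to 1560. In PY TGR5-KO against PY CYP7a1-KO 0 transporters were called, with 2 to 36 of all genes. Transporters called were 2 to 3 in WT TGR5-KO against WT CYP7a1-KO, 2 to 3 for the TGR5-KO interaction and 3 for the CYP7a1-KO interaction. All genes called numbered 2470 to 2814, 814 to 1056 and 2262 to 2919, in that order. Changed hepatocyte ratios then numbered 0, 0 to 1 and 0 to 2, and intestinal ratios 0, 0 to 3 and 0 to 3, for PY SLC45a2-KO against WT SLC45a2-KO, PY TGR5-KO against PY SLC45a2-KO and PY CYP7a1-KO against PY SLC45a2-KO, in that order; smaller groups limit the smallest p, so this says nothing of stability.

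The replicate numbers did not pair the samples: over 39 same-numbered pairs r was −0.104 to 0.0624, and the best correlate shared the number in 5 of 27 libraries. With the replicate block the count of transporters called was 3 in PY SLC45a2-KO against WT SLC45a2-KO, losing *abcb5* (adjusted p = 0.0504), and 4 in PY CYP7a1-KO against WT CYP7a1-KO, losing *abcb5* (0.0734). All genes called with the block numbered 5288 and 3621 of 15521 in these comparisons, in that order. The block changed no other count of transporters. For the ratios in PY TGR5-KO, and in PY CYP7a1-KO, against PY SLC45a2-KO, for both marker lists, the block left 0 calls, which a paired test of 5 pools cannot exceed here.

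Over all genes, fitting only the groups compared gave 1853 calls rather than 1008 in WT TGR5-KO and 2962 rather than 1804 in WT CYP7a1-KO, each against WT SLC45a2-KO. PY TGR5-KO against PY CYP7a1-KO had 21 calls, 95 with no filter, 37 without robust estimation, 3 with only these groups, 70 with DESeq2, 12 without libraries 1 and 2 of PY CYP7a1-KO, and 2 to 36 without 1 library. Low counts limit *slc10a2*, with 222 in all.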
